A study of Mus musculus with 6 samples.

Results

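The genes that carry the Wnt signal to and from liver cells were followed in liver RNA of *Alb-Cre;Tcf7l2* f/f mice, in which *Tcf7l2* was deleted in hepatocytes, and of wild-type mice. The set was defined by gene symbol and holds the Wnt ligands, the R-spondins, the Frizzled receptors, the secreted Sfrp and Dkk proteins, and *Frzb*, *Wif1*, *Lrp5*, *Lrp6*, *Lgr4*, *Ror1*, *Ror2*, *Ryk*, *Porcn* and *Wls*. It comprised 51 of the 23282 genes counted. Of these, 29 were detected, defined as 10 or more counts in at least 3 of the 6 libraries. No member passed the test for a difference between the genotypes with edgeR's quasi-likelihood test, whereas the Wnt feedback genes *Notum*, *Lgr5* and *Tcf7* fell in the same livers.

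Wnt proteins are secreted lipid-modified ligands. They bind Frizzled receptors together with LRP5 or LRP6, which stabilises β-catenin, and β-catenin then activates genes together with TCF/LEF factors such as TCF7L2. R-spondins, bound by LGR receptors, keep Frizzled proteins on the cell surface, while Sfrp proteins and some Dkk proteins block the ligand or the co-receptor. In liver, endothelial cells of the central vein are a known source of *Wnt2*, *Wnt9b* and *Rspo3*, and the signal sets the pericentral programme of hepatocytes.

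All mice were C57BL/6 by the labels (C57BL/6N in the study's methods), aged 12 weeks, and were fasted for 24 h and then refed normal chow for 24 h. The wild-type group (3 mice, libraries 7-2, 8-1 and 8-3) carried the floxed alleles without Cre by the study's methods, and the knockout group (3 mice, libraries 7-2, 7-3 and 8-3) carried *Tcf7l2* alleles floxed at exon 5 and *Cre* under the albumin promoter. That promoter is active in hepatocytes, so endothelial, stellate and Kupffer cells, which are also in whole liver, are not targeted. Libraries held 60619938 to 133384586 counts, and major urinary protein (*Mup*) genes took 18.48% to 54.26% of them. Wild-type library 8-1 was the deepest and had the largest *Mup* share, and results that rest on it are given with and without it. Each library was taken as 1 mouse, and *p* values measure the spread between these libraries.

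*Tcf7l2* itself stood at 4.88, 6.13 and 6.85 CPM (counts scaled to a common library size with TMM factors) in wild-type livers and at 3.31, 2.74 and 3.33 CPM in knockout livers. The groups did not overlap, but the difference missed the threshold in edgeR (log2 fold change −0.93, SE 0.19, adjusted *p*=0.0856) and passed it in DESeq2 (adjusted *p*=0.00283; over all alternatives 0.00283 to 0.435). Over the 20 ways to split 6 livers into groups of 3, an exact two-sided permutation gave *p*=0.1, which no split can better. The counts cover the whole *Tcf7l2* gene while the deletion is of exon 5, so they check the deletion only in part. Hepatocyte markers were at 60900 to 67000 CPM in sum in wild-type and at 54300 to 76800 CPM in knockout libraries, with none of the 6 listed at 0.

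TCF/LEF factors bind a short motif, so the promoters of the detected members were searched for CTTTGAA or for CTTTGAT or for CTTTGTA or for CTTTGTT, on both strands. The windows are from RefSeq on GRCm38.p6, from 250 bases before to 50 after a start. Of the 29 detected members, 18 had 1 or more among the windows searched. The motif was in the window of 3 of these 18: *Dkk1* (2 matches), *Fzd7* (1) and the third of 3 starts of *Wnt5b* (1). Counted by window, that is 3 of 20, against 5544 of all 32851 windows (16.9%). The other detected members, *Fzd8* among them, had no window in the search. Whether RefSeq has a start for them is not shown here, so the 3 of 20 does not cover all 29. The windows with a match are shown with those of *Wnt4* and *Fzd4*, the most abundant detected ligand and the Frizzled receptor with the largest difference, which had no match. They are written 5′ to 3′ on the strand of the gene, with matches on either strand in capitals.
Dkk1 (chr19:30549447-30549746, minus strand): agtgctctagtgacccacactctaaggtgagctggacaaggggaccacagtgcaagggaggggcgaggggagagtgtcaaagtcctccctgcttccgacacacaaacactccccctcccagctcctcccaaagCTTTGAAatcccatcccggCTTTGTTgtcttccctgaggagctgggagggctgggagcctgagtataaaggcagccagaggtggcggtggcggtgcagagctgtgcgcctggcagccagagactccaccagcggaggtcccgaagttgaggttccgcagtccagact
Fzd7 (chr1:59481897-59482196, plus strand): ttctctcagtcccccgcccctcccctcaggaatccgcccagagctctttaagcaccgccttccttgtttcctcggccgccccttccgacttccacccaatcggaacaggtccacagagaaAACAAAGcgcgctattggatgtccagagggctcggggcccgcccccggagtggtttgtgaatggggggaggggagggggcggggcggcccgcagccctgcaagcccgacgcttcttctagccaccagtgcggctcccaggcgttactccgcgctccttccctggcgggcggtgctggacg
Wnt5b (chr6:119449337-119449636, minus strand): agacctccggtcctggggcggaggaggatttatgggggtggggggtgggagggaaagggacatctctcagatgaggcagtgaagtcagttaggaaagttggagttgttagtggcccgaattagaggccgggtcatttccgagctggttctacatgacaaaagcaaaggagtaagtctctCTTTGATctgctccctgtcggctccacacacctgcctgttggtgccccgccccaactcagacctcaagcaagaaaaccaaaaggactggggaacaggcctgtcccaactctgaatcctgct
Wnt4 (chr4:137277385-137277684, plus strand): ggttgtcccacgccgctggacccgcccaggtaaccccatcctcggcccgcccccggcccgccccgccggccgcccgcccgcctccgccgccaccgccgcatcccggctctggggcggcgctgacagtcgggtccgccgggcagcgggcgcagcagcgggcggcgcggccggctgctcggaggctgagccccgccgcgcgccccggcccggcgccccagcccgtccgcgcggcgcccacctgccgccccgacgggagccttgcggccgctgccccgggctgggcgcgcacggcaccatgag
Fzd4 (chr7:89404116-89404415, plus strand): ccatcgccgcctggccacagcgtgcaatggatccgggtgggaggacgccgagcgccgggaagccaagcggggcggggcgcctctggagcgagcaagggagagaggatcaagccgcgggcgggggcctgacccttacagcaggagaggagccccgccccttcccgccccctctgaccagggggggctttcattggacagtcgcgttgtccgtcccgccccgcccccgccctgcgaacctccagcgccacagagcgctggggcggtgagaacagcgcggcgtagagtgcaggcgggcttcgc

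Of the 5 genes shown, only *Fzd4* had groups that did not overlap in the comparison of genotypes. A match in the letters shows no binding.

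Detection differed by role. Of 19 Wnt ligands 6 were detected, of 4 R-spondins 2, of 10 Frizzled receptors 7, of 6 other receptors or co-receptors 5, of 10 secreted inhibitors 7, and both genes for acylation and export. *Wnt6*, *Wnt7a*, *Wnt8a*, *Wnt10a*, *Wnt10b*, *Wnt16*, *Rspo2* and *Rspo4* had 0 counts in every library. A count of 0 allows up to 3 counts, or 0.0348 to 0.0451 CPM by library, for counting error only. A further 13 undetected members had some counts, with 28 as the highest (*Sfrp4* in wild-type library 8-3, at most 4 elsewhere). These were *Wnt1*, *Wnt3*, *Wnt3a*, *Wnt7b*, *Wnt9a*, *Wnt11*, *Fzd2*, *Fzd9*, *Fzd10*, *Ror2*, *Sfrp4*, *Sfrp5* and *Wif1*. *Wnt9a* came nearest to the limit, with 15 counts in knockout library 8-3 and 4 to 8 in the others.

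The last undetected member, *Wnt8b*, had 14076 counts in wild-type library 8-1 and 0 in the other 5. It lies on chromosome 19 (44493472 to 44514273 of GRCm38, the build of all coordinates here). Genes beside it showed the same pattern: *Sec31b*, 23.5 kb downstream by its start, had 61173 counts in that library and 69 to 210 elsewhere, *Hif1an* had 19342 against 420 to 805, and *Pax2* had 11773 against 0 to 38. *Ndufb8*, between them, had 16569 counts against 6172 to 7269. Beyond this run, *Fam178a* had 893 counts in library 8-1 and 636 to 1053 elsewhere, and *Scd1*, on the other side, had 143609 against 36177 to 132153. Since 1 library alone carries it, *Wnt8b* entered no comparison, and the cause was not tested.

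**Figure D1:**
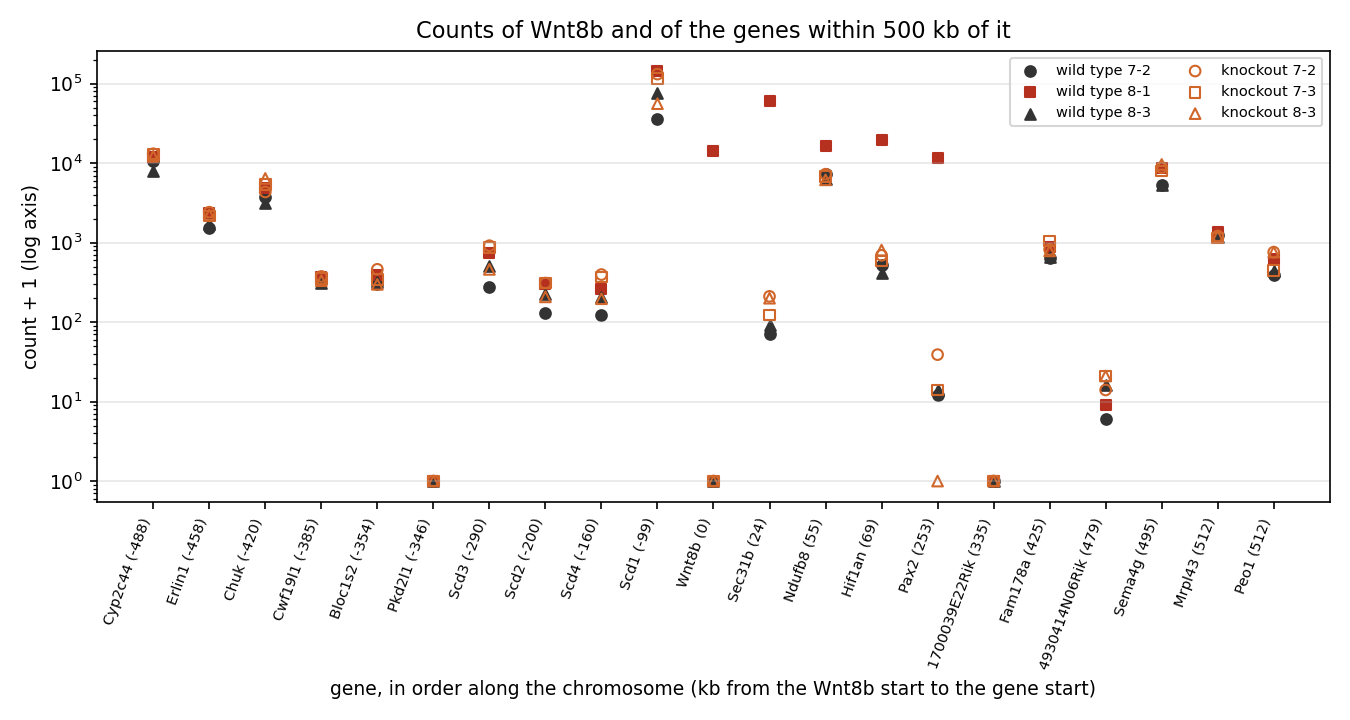
Counts plus 1 (log axis) of *Wnt8b* and the genes within 500 kb of it in each of the 6 libraries, in order along the chromosome, with the distance in kb between gene starts in brackets. Wild-type library 8-1 (filled squares) stands above the other 5 at *Wnt8b*, *Sec31b*, *Ndufb8*, *Hif1an* and *Pax2*, and lies near them at the genes on either side.

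Levels of different genes were compared per kilobase of transcript. The receptors *Lrp5*, *Ryk* and *Lgr4* had the highest means of the detected members, at 5.65, 5.53 and 3.44 CPM per kilobase, and *Lrp6* averaged 2.10. The ranges of *Lrp5* and *Ryk* over libraries overlapped, as did those of *Lgr4* and *Lrp6*, while *Ryk* lay above *Lgr4* in every library. Among ligands, *Wnt4* averaged 2.24 CPM per kilobase, *Wnt5b* 0.632, *Wnt2* 0.233, *Wnt9b* 0.0973, *Wnt2b* 0.0663 and *Wnt5a* 0.0565, and each of the first 3 lay wholly above the next. Among Frizzled receptors *Fzd7* led (1.19 CPM per kilobase, range 0.987 to 1.40) and lay wholly above *Fzd4* (0.420), whose range overlapped that of *Fzd5* (0.400). *Dkk1* led the inhibitors (1.82 CPM per kilobase) and lay above *Sfrp2* (0.228) and *Sfrp1* (0.216), which overlapped. *Rspo3* (0.531) lay above *Rspo1* (0.216). *Ror1* was the lowest detected receptor (0.0545).

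**Figure D2:**
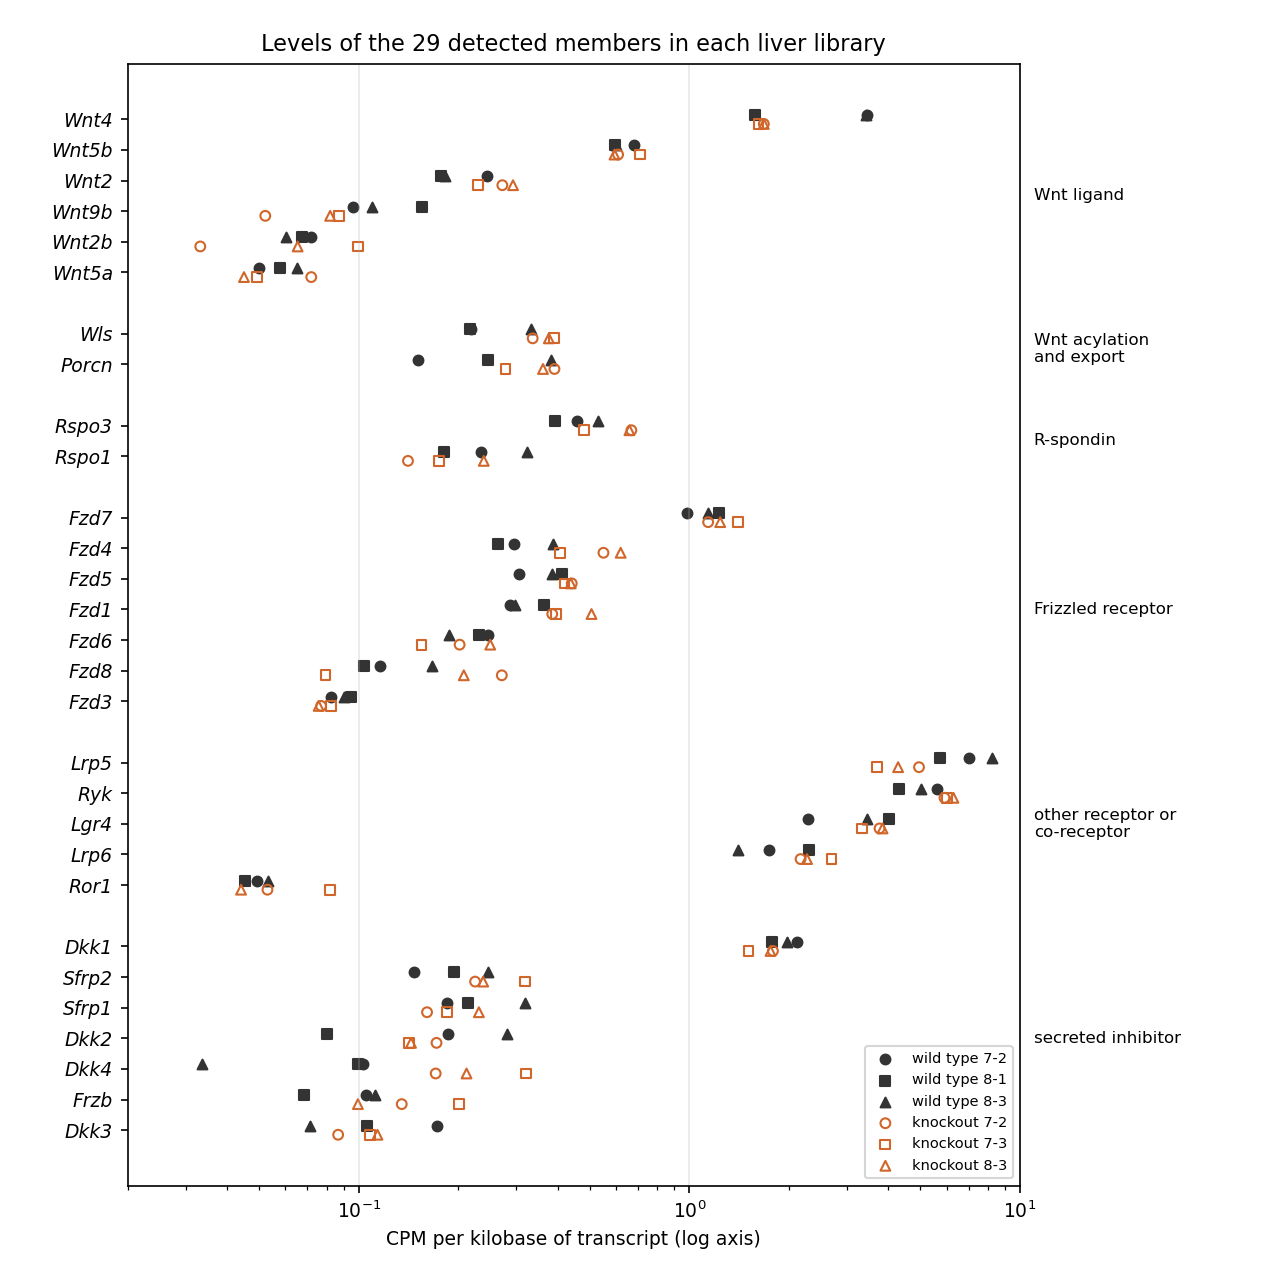
CPM per kilobase of transcript (log axis) of the 29 detected members in each library, grouped by role and ordered by mean. Filled symbols are the 3 wild-type and open symbols the 3 knockout libraries. *Lrp5*, *Ryk* and *Lgr4* are the highest, and *Wnt5a* and *Ror1* among the lowest.

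In the comparison of genotypes, 0 of the 29 members were called by edgeR (adjusted *p* under 0.05), against 63 of the 14076 genes tested (0.448%, and 0.377% counting falls alone). Of these 63, 10 were higher and 53 lower. Scaled by library size alone, 2936 genes were called higher and 88 lower, as the median log2 fold change of all genes then stood at 0.613. DESeq2 called 1 member, *Lrp5*, against 3.08% of all genes. At an unadjusted *p* under 0.05, 2 members were higher (*Fzd4*, *Dkk4*) and 2 lower (*Lrp5*, *Wnt4*), against 6.7% and 6.76% of all genes. The median log2 fold change of the members was 0.172, beside −0.017 over all genes tested, with 17 members above 0 and 12 below. In 6 members (20.7%, against 10.2% of all genes) each knockout value exceeded each wild-type value, and in 2 (6.9%, against 9.08%) each was lower. *Dkk4*, 1 of these 6, met the detection limit through the knockout libraries. The biological coefficient of variation was 23.9%, and the 95% intervals of single members, which run from −1.60 at the lowest to 2.78 at the highest end on the log2 scale, leave changes of that size undetectable in some of them.

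**Figure D3:**
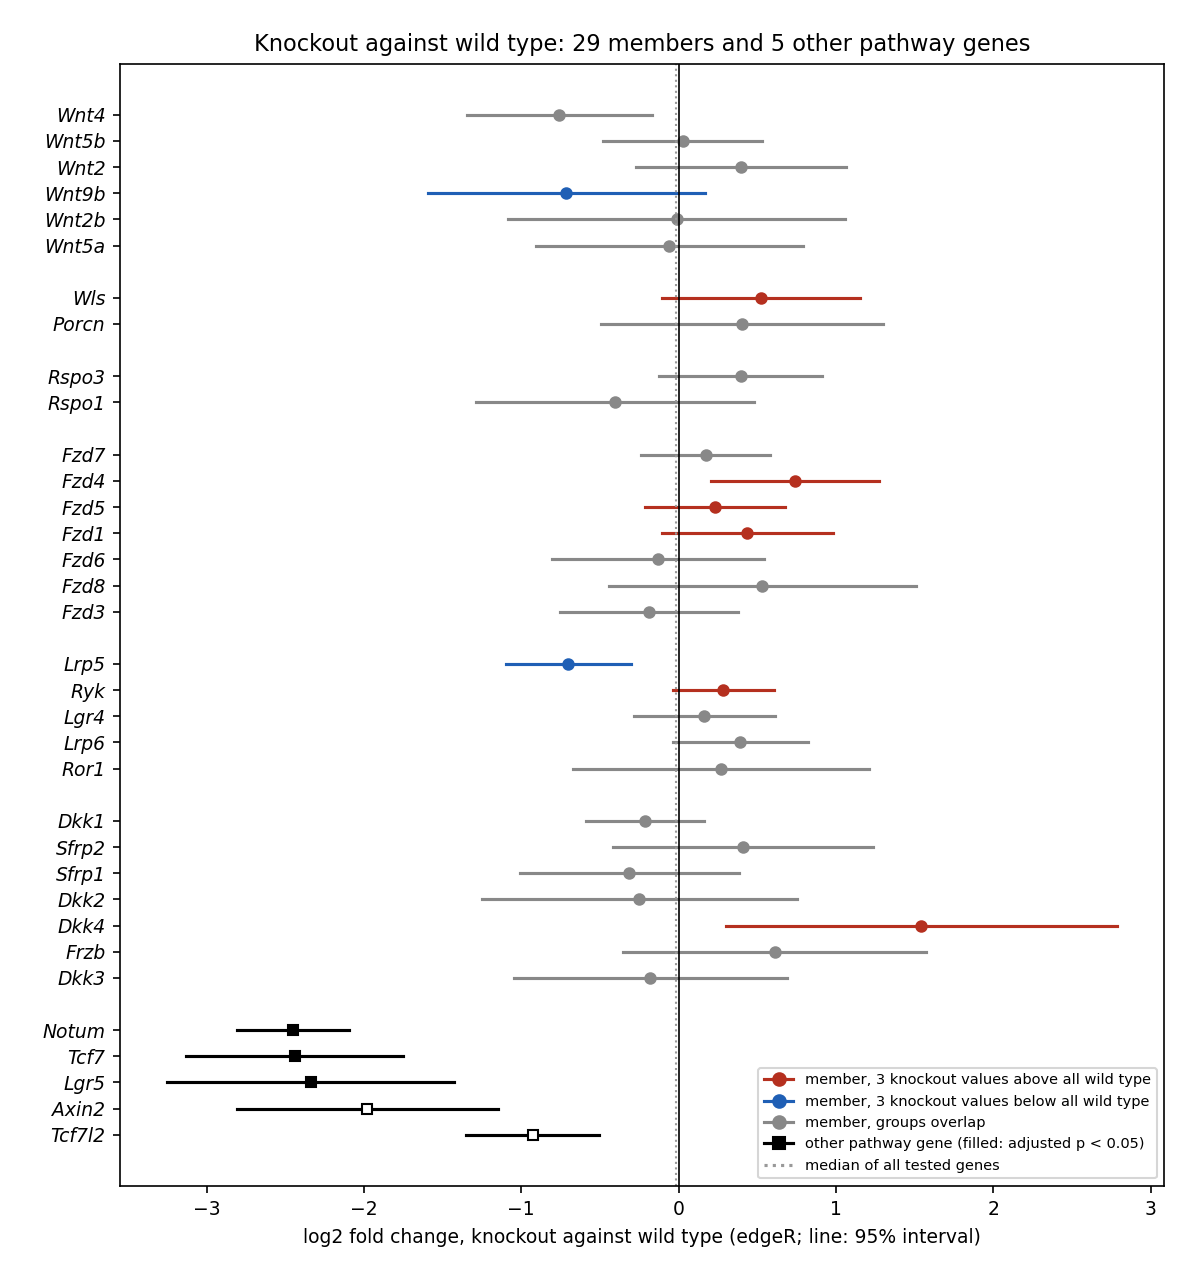
Log2 fold change of knockout against wild type (edgeR, lines are 95% intervals, n = 3 per group) for the 29 members by role and for 5 other pathway genes. The members lie between −0.76 and 1.54, whereas *Notum*, *Tcf7* and *Lgr5* lie below −2.

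The ligands gave 4 negative and 2 positive fold changes. *Wnt4* (chromosome 4, 137277635 to 137299501), the most abundant per kilobase, stood at 15.9, 7.30 and 15.8 CPM in wild-type libraries 7-2, 8-1 and 8-3 and at 7.75, 7.51 and 7.77 CPM in knockout libraries 7-2, 7-3 and 8-3. Wild-type library 8-1 thus lay below all 3 knockout livers, while the other two lay well above them. The log2 fold change was −0.76 (SE 0.26, edgeR adjusted *p*=0.259, unadjusted *p*=0.0168). Without library 8-1 it was −1.04 with an adjusted *p*=0.0367 (over all alternatives 0.0367 to 0.616), so that this 1 library decides the call. Smooth muscle and portal fibroblast markers summed to 17.2, 12.5 and 19.1 CPM in those wild-type libraries and 12.3, 12.4 and 12.3 CPM in the knockout libraries. Library 8-1 was thus the lowest wild-type library here too, but it lay just above the knockout libraries. Among wild-type libraries, *Acta2*, *Tagln*, *Thy1*, *Eln* and *Myh11* were lowest in 8-1, whereas *Cnn1* and *Mfap4* were highest there. Whether smooth muscle cells and portal fibroblasts have a part in the *Wnt4* values was not tested.

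*Wnt9b*, a ligand of the central vein endothelium, stood at 0.436, 0.705 and 0.5 CPM in wild-type and at 0.236, 0.395 and 0.371 CPM in knockout livers. All 3 knockout values were lower, on 20 to 59 counts per library (log2 fold change −0.71, SE 0.39, edgeR adjusted *p*=0.458). Without wild-type library 8-1, the highest, the log2 fold change was −0.48. *Wnt2*, from the same endothelium, stood at 0.873, 0.633 and 0.647 CPM in wild-type and at 0.968, 0.817 and 1.04 CPM in knockout livers, with overlapping groups (log2 fold change 0.40, SE 0.30, edgeR adjusted *p*=0.585). The ratio of *Wnt9b* to *Wnt2* counts was 0.5, 1.11 and 0.773 in wild-type and 0.244, 0.484 and 0.356 in knockout livers. This ratio was lower in each knockout than in each wild-type liver. It was chosen after the values were seen, so it is a description and no test of it is given. *Wnt5b*, a ligand of β-catenin-independent signalling, stood at 1.73, 1.52 and 1.53 CPM in wild-type and at 1.55, 1.80 and 1.51 CPM in knockout livers, a log2 fold change of 0.025 with a 95% interval from −0.48 to 0.53. *Wnt2b* and *Wnt5a* stood at 0.154 to 0.520 CPM over all libraries, with log2 fold changes of −0.013 and −0.058. The *Wnt5b* gene overlaps *Fbxl14* in the annotation and *Wnt2b* overlaps *St7l*, and the sources used here do not give whether reads were counted by strand.

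The genes that equip Wnt proteins for secretion both had positive fold changes. *Wls*, the carrier that escorts Wnt proteins to the cell surface, stood at 0.782, 0.776 and 1.19 CPM in wild-type and at 1.20, 1.40 and 1.35 CPM in knockout livers. The groups did not overlap, though by a gap of 1.19 against 1.20 CPM, and the difference did not pass the test (log2 fold change 0.52, SE 0.28, edgeR adjusted *p*=0.451). *Porcn*, the acyltransferase that attaches the lipid, stood at 0.301, 0.490 and 0.764 CPM in wild-type and at 0.779, 0.553 and 0.720 CPM in knockout livers, with overlapping groups (log2 fold change 0.40, edgeR adjusted *p*=0.682).

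The R-spondins went in opposite directions without passing the test. *Rspo3* stood at 1.93, 1.66 and 2.23 CPM in wild-type and at 2.82, 2.03 and 2.79 CPM in knockout livers (log2 fold change 0.39, SE 0.23, edgeR adjusted *p*=0.485). *Rspo1* stood at 0.512, 0.394 and 0.705 CPM in wild-type and at 0.307, 0.382 and 0.522 CPM in knockout livers (log2 fold change −0.41, SE 0.40, edgeR adjusted *p*=0.672). In each case the groups overlapped.

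Among Frizzled receptors 5 of 7 fold changes were positive. In 3 the knockout values lay wholly above the wild-type values, as in 10.2% of all genes tested, and none of the 3 was called by edgeR or DESeq2. *Fzd4* (chromosome 7, 89404366 to 89410110), which also serves as receptor for norrin, stood at 1.99, 1.77 and 2.60 CPM in wild-type and at 3.70, 2.73 and 4.17 CPM in knockout livers. All 3 knockout values were higher, although the lowest lay close to the highest wild-type value (log2 fold change 0.74, SE 0.24, edgeR adjusted *p*=0.232, unadjusted *p*=0.0117). Its annotated span overlaps *Tmem135*, which had 2691 to 4422 counts and a log2 fold change of 0.33 (edgeR adjusted *p*=0.369). *Fzd1* stood at 1.20, 1.53 and 1.25 CPM in wild-type and at 1.62, 1.66 and 2.12 CPM in knockout livers (log2 fold change 0.44, edgeR adjusted *p*=0.463).

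*Fzd5* stood at 2.12, 2.87 and 2.67 CPM in wild-type and at 3.06, 2.91 and 3.04 CPM in knockout livers, again without overlap (log2 fold change 0.23, edgeR adjusted *p*=0.633). *Fzd7*, the most abundant Frizzled per kilobase, stood at 2.92, 3.63 and 3.37 CPM in wild-type and at 3.38, 4.14 and 3.67 CPM in knockout livers, with overlap (log2 fold change 0.17, 95% interval −0.24 to 0.58). *Fzd8*, *Fzd6* and *Fzd3* had log2 fold changes of 0.53, −0.13 and −0.19. Their groups overlapped, and *Fzd8* was the most scattered, at 0.474 to 1.62 CPM among knockout livers.

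The co-receptor *Lrp5* (chromosome 19, 3584825 to 3686585) gave the smallest *p* of all members. It stood at 36.3, 29.6 and 42.7 CPM in wild-type livers and at 25.6, 19.1 and 22.1 CPM in knockout livers, and every knockout value lay below every wild-type value. The mean ± SD was 36.2 ± 6.53 CPM in wild-type livers, against 22.3 ± 3.25 CPM in knockout livers (n = 3 each). The fold was 0.615 (95% interval 0.467 to 0.811), which missed the threshold in edgeR (adjusted *p*=0.147, unadjusted *p*=0.00297) and passed it in DESeq2 (adjusted *p*=0.0206). Over all alternatives the adjusted *p* ran from 0.0206 to 0.832. *Lrp6*, its paralogue, stood at 16.9, 22.3 and 13.6 CPM in wild-type and at 21.1, 26.1 and 22.1 CPM in knockout livers, with overlap at wild-type library 8-1 (log2 fold change 0.39, SE 0.19, edgeR adjusted *p*=0.411). Without that library the groups did not overlap, and the log2 fold change was 0.61 (edgeR adjusted *p*=0.175). The ratio of *Lrp5* to *Lrp6* counts was 2.15, 1.33 and 3.15 in wild-type livers and 1.21, 0.729 and 1.00 in knockout livers. This ratio too was lower in each knockout liver. It was also chosen after the values were seen, so it is a description and no test of it is given.

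*Ryk*, a Wnt-binding receptor of the tyrosine kinase family, stood at 16.6, 12.8 and 14.8 CPM in wild-type and at 17.5, 17.8 and 18.6 CPM in knockout livers, without overlap (log2 fold change 0.29, SE 0.14, edgeR adjusted *p*=0.422). The R-spondin receptor *Lgr4* stood at 11.9, 21.0 and 17.9 CPM in wild-type and at 19.6, 17.3 and 20 CPM in knockout livers (log2 fold change 0.16, edgeR adjusted *p*=0.749). Wild-type library 7-2 held the lowest *Lgr4* value, and the groups overlapped. *Ror1*, a receptor for WNT5A, stood at 0.255 to 0.474 CPM over all libraries with a log2 fold change of 0.27.

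Among secreted inhibitors 3 fold changes were positive and 4 negative. *Dkk4* (chromosome 8, 22623685 to 22628018), an inhibitor of LRP5 and LRP6 and itself a known Wnt target, had the largest fold change of any member on the fewest counts. Its counts were 9, 11 and 3 in wild-type and 19, 32 and 24 in knockout libraries, or 0.135, 0.131 and 0.0441 CPM against 0.224, 0.421 and 0.279 CPM. It reached 10 counts in all 3 knockout libraries but in only 1 wild-type library (8-1). Its detection thus rests on the group where it is higher, and its difference is no independent result. The groups did not overlap (log2 fold change 1.54, SE 0.55, 95% interval 0.30 to 2.78, edgeR adjusted *p*=0.266, unadjusted *p*=0.0190). *Dkk1*, the most abundant inhibitor, stood at 5.12, 4.31 and 4.81 CPM in wild-type and at 4.33, 3.67 and 4.28 CPM in knockout livers, with overlap (log2 fold change −0.21, 95% interval −0.59 to 0.16).

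Sfrp proteins and *Frzb* bind Wnt ligands outside the cell. *Sfrp1* stood at 0.858, 0.992 and 1.47 CPM in wild-type and at 0.744, 0.856 and 1.07 CPM in knockout livers (log2 fold change −0.31). *Sfrp2* stood at 0.316, 0.418 and 0.529 CPM in wild-type and at 0.484, 0.685 and 0.511 CPM in knockout livers (log2 fold change 0.41). *Frzb*, *Dkk2* and *Dkk3* had log2 fold changes of 0.61, −0.25 and −0.18. In all 5 genes the groups overlapped, and edgeR's adjusted *p* lay between 0.556 and 0.877.

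**Figure D4:**
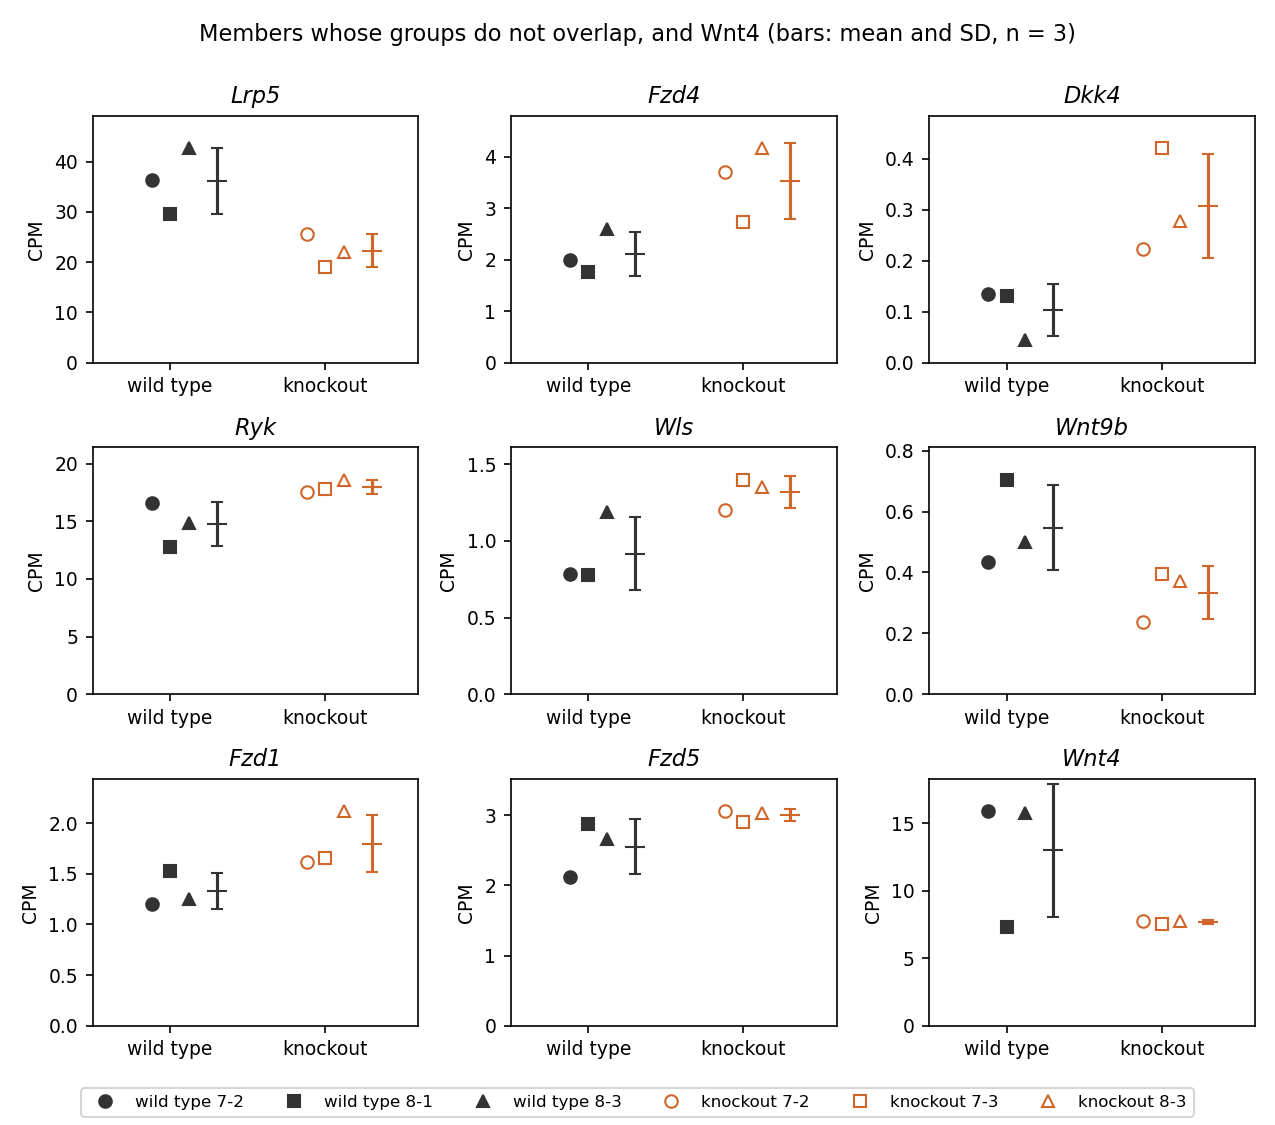
CPM in each library of the 8 members whose knockout and wild-type values do not overlap, and of *Wnt4*. Points are libraries, bars the mean and SD (n = 3 per group), and each axis starts at 0. In *Wnt4*, wild-type library 8-1 (7.30 CPM) lies with the knockout libraries (7.51 to 7.77 CPM) and away from the other wild-type libraries.

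The pathway genes that passed the test lay outside the set. Of 13 tested membrane and secreted pathway genes 2 fell and 0 rose by edgeR, against 53 (0.377%) and 10 of all 14076 genes. *Notum*, which removes the lipid from Wnt proteins, stood at 8.70, 8.10 and 8.52 CPM in wild-type and at 1.55, 1.5 and 1.58 CPM in knockout livers (log2 fold change −2.45, SE 0.16, edgeR adjusted *p*=0.000102). *Lgr5*, a second R-spondin receptor, fell from 0.888, 1.08 and 1.09 CPM to 0.106, 0.263 and 0.232 CPM (log2 fold change −2.34, SE 0.41, edgeR adjusted *p*=0.0460). Of the rest of that list, *Reck*, a co-receptor for WNT7 ligands, and *Tspan12*, a partner of *Fzd4*, had the smallest *p*, with log2 fold changes of 1.24 and 0.35 and edgeR adjusted *p*=0.204 and 0.294.

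Of 41 tested intracellular pathway genes 1 fell and 0 rose by edgeR, beside 0.377% of all genes called lower. *Tcf7*, a TCF/LEF factor, stood at 1.91, 2.32 and 1.98 CPM in wild-type and at 0.272, 0.514 and 0.360 CPM in knockout livers (log2 fold change −2.44, SE 0.31, edgeR adjusted *p*=0.00943). Next by *p* came *Axin2*, a feedback inhibitor (log2 fold change −1.98, edgeR adjusted *p*=0.0654), *Tcf7l2*, and the co-repressor *Tle4* (log2 fold change 0.75, edgeR adjusted *p*=0.0892). The median log2 fold change was −0.135 in the membrane and secreted list and 0.097 in the intracellular list. In the 6 fits that each leave out 1 library, *Lgr5* missed the threshold every time (edgeR adjusted *p* from 0.0563 to 0.164), with log2 fold changes of −2.58 to −2.03. *Tcf7* missed it when wild-type 8-1 or knockout 8-3 was the library left out (edgeR adjusted *p* from 0.0101 to 0.0552 over the 6 fits), with log2 fold changes of −2.71 to −2.25. *Notum* stayed at or below an adjusted *p* of 0.00154.

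Since many members are made by cells other than hepatocytes, marker lists of those cells are given beside them. In bulk liver, fewer cells of a type and less RNA per cell cannot be told apart. Stellate cell markers summed to 72.4 to 88.1 CPM in wild-type and 114 to 116 CPM in knockout libraries. Of 14 such markers 11 had positive fold changes, while *Col1a1*, *Des* and *Pdgfrb* had negative ones (log2 fold changes −0.22, −0.09 and −0.086). At an unadjusted edgeR *p* under 0.05, 9 were higher, against 6.7% of all genes. By edgeR 0 were called, with the smallest *p* in *Dcn* (log2 fold change 0.98, edgeR adjusted *p*=0.0927). DESeq2 called 3 higher, against 194 of all 14076 genes tested. Sinusoidal and central vein endothelial markers summed to 81.5 to 88.3 CPM in wild-type and 98.9 to 104 CPM in knockout libraries. Of these 14 markers 13 had positive fold changes, while *Clec1b* was lower in each knockout than in each wild-type library (log2 fold change −0.304). At an unadjusted edgeR *p* under 0.05, 2 were higher, against the same 6.7% of all genes, and 0 were called. Both lists thus lay higher in the knockout libraries, as did *Fzd4*, *Fzd5*, *Fzd1*, *Wls* and *Ryk*. So did *Dkk4*, but its detection rests on the knockout libraries. *Wnt9b* and *Lrp5* lay lower, and in the remaining 21 members the groups overlapped. The part of these cells in the members' values was not tested.

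Kupffer cell markers summed to 76.1 to 90.7 CPM in wild-type and 60.4 to 78.2 CPM in knockout libraries, with 7 of 8 fold changes negative and 0 called. Smooth muscle and portal fibroblast markers, in the same order, summed to 12.5 to 19.1 CPM and 12.3 to 12.4 CPM, with 4 of 7 fold changes negative. Cholangiocyte markers summed to 29.5 to 52.8 CPM and 27.8 to 33.7 CPM, mesothelial markers to 0.526 to 1.19 CPM and 0.579 to 1.22 CPM, and lymphocyte markers to 3.04 to 4.13 CPM and 3.78 to 4.57 CPM. No listed marker was at 0 in all libraries, and no list had a gene called by edgeR.

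**Figure D5:**
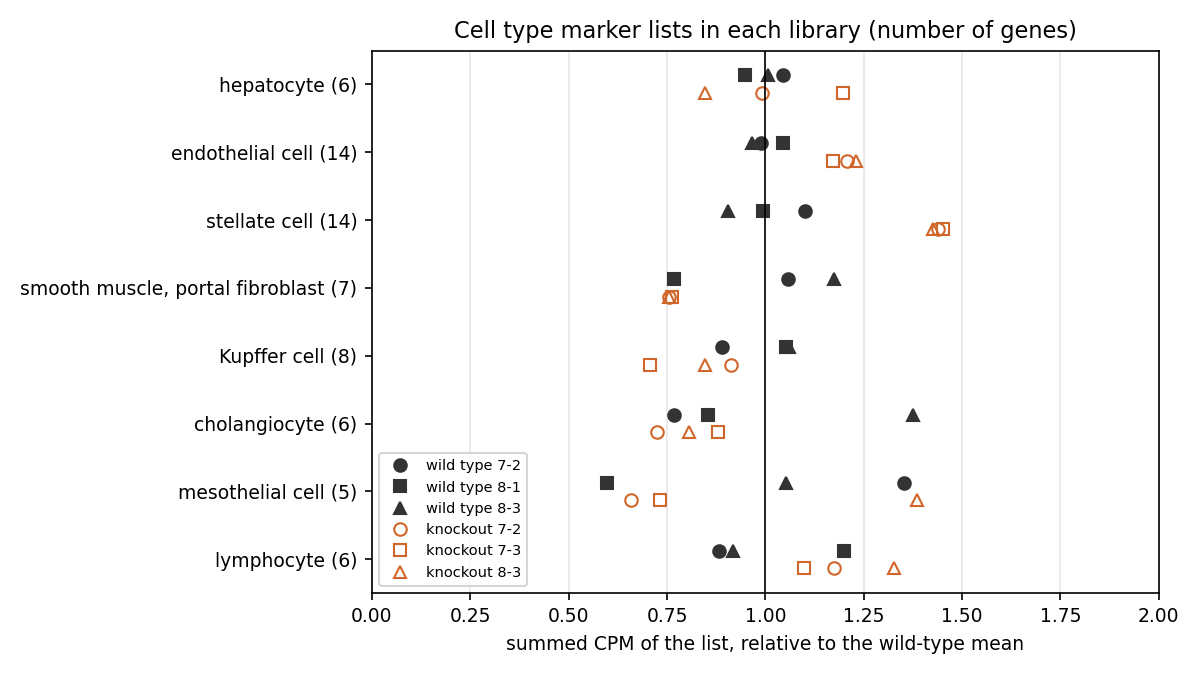
Summed CPM of each cell type marker list in each library, divided by the mean of the 3 wild-type libraries, with the number of genes in brackets. Stellate and endothelial lists lie higher in all 3 knockout libraries (open symbols), and smooth muscle markers in wild-type library 8-1 (filled square) lie next to the knockout libraries.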

How the data were processed

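Liver RNA of 6 mice was sequenced with a directional kit. The deposited values are raw counts, which the authors obtained with Bedtools 2.25.0 from reads that aligned once or several times. The submitters' processing notes name TopHat and mm10. Neither the annotation nor the use of strand in counting is given in the sources used here. These counts are whole numbers with a different total per library and so precede the quantile normalisation of the study's methods.

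The genotypes were compared in R 4.3.3 with edgeR 4.0.16 and limma 3.58.1 (quasi-likelihood test) after TMM scaling and filterByExpr, which kept 14076 genes and all 29 detected members. A gene was called at a Benjamini-Hochberg adjusted *p* under 0.05 over all of these genes. CPM use TMM-scaled library sizes. Lengths for CPM per kilobase are those of GENCODE M39 transcripts, and coordinates are RefSeq's on GRCm38.p6. No 2 libraries were copies of each other. Limits on counts of 0 cover counting error only, since reads carry no molecular identifiers, whereas intervals of fold changes come from the edgeR fit and include the spread between libraries.

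Every detected member was named, with values per library for those called by edgeR or DESeq2, with groups that do not overlap, or among the 3 most abundant per role. Of other pathway genes, those called and up to 4 per list with the smallest *p* were named. Members and lists were chosen with earlier results of these data known. Alternatives were DESeq2 1.42.0, other scalings and filters, leaving out each library, replicate blocks and other detection limits.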

Additional observations from a re-analysis of the deposited data

How the results depend on the processing

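Over 16 alternatives, 434 of the 464 member values kept their direction and their side of the threshold, 18 reversed and 12 newly passed it. DESeq2 called 1 member lower, 2 other pathway genes higher (*Reck*, *Tle4*) and 5 lower, and gave *Tcf7l2* −0.92, past the threshold. Library size alone moved the median of all genes to 0.613 and called 10 members and 19 other pathway genes higher (0 lower among members), with a members' median of 0.24 relative to that shift, which the calls do not remove. Over all genes, DESeq2 called 194 higher and 239 lower, no filter 23 and 73, the leave-one-out fits 3 to 18 and 21 to 69, and the fits with a replicate block 15 and 33 (shared numbers) and 6 and 33 (leading number). With 1 library left out, members called lower ran from 0 to 1 (*Wnt4*, without wild-type library 8-1), their median from 0.0906 to 0.219, and other pathway genes called lower from 1 to 2. Without 1 library, *Fzd6* ran from −0.31 to 0.024, *Wnt2b* from −0.43 to 0.31, *Wnt5a* from −0.29 to 0.072, *Wnt5b* from −0.059 to 0.091, *Lgr4* from −0.033 to 0.36, *Ror1* from −0.022 to 0.45, *Dkk2* from −0.61 to 0.20 and *Dkk3* from −0.43 to 0.21, so that their signs are not set by these data. *Fzd8* ran from 0.16 to 0.89, *Porcn* from 0.14 to 0.78, *Rspo1* from −0.64 to −0.16 and *Frzb* from 0.31 to 0.82 (0.097 with the block on shared numbers), each with its sign kept. Of the members whose groups did not overlap, *Ryk*, *Fzd4*, *Wls* and *Wnt9b* moved towards 0 without wild-type library 8-1 (0.20, 0.63, 0.42 and −0.48). *Fzd1*, *Fzd5*, *Lrp5* and *Dkk4* moved away from 0 (0.56, 0.33, −0.82 and 1.77). Label numbers 7-2 and 8-3 occur in both groups, and the sources used here do not say what the numbers stand for. Deviations of same-numbered libraries correlated at 0.01 and −0.01, and those of differently numbered pairs at −0.11 to 0.11. With 3 libraries per group, these values cannot show whether same-numbered libraries share more than a number. With a replicate block on the shared numbers (4 libraries), 0 members were called and the members' median was 0.0973. That fit called 1 other pathway gene lower, and *Fzd6*, *Wnt5b* and *Ror1* stood at 0.063, −0.09 and −0.084. A block on the leading number gave *Wnt5b* −0.03 and called 0 members. Other limits detected 28 to 31 members. The leave-one-out fits and the block on shared numbers also held fewer libraries, and the cause of these changes was not tested. Depth limits *Dkk4* most, with 3 to 32 counts per library.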

Other observations

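Besides the run of genes around *Wnt8b*, 2 other groups of genes, each on 1 chromosome, were high in 1 library alone. Genes were taken that had at least 500 counts in 1 library and over 50 times the highest count in the others, and 10 met this. In wild-type library 8-1 they were *Wnt8b*, *Sec31b* and *Pax2*. In wild-type library 8-3 they were 5 genes of chromosome 13: *Zfp184* (576 counts against at most 7 elsewhere), *Prss16* (1152 against 3), *Hist1h3d* (685 against 8), *Hist1h4d* (690 against 10) and *Trim38* (668 against 2). These 5 lie between positions 21945053 and 23791731, and counts of the genes between them are not given here. In knockout library 7-2 they were *Krt79* (4570 against 28) and *Krt78* (5870 against 38), neighbours on chromosome 15. The remaining 3 libraries had 0 such genes.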
